A study of Mus musculus with 4 samples.

Results

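Dusp1, Dusp2, Dusp5, Dusp6, Spry1, Spry2 and Spry4 are 7 genes that ERK signalling switches on and whose products restrain it again. They were taken by symbol from the 31053 features listed in the deposited matrices. Their unique molecular identifiers (UMIs, 1 per captured transcript) were summed over marker-gated cell classes in each of 4 single-cell libraries. The cells were the stromal vascular fraction of mouse inguinal white fat, which is what remains of a digested fat pad after the adipocytes float off. The mice were iAdFASNKO or control. The labels leave iAdFASNKO unexplained; as background, it denotes mice in which Fasn, the gene of fatty acid synthase, can be deleted from adipocytes on induction. Neither the inducing agent and its timing nor the age and sex of the mice were in the labels. Cells of 8 iAdFASNKO mice and of 7 control mice, for which alone a strain (C57BL/6) is stated, were each pooled and split on magnetic beads. This gave a Lin+ library (lineage-marker positive, mostly immune cells per the labels) and a Lin- library (the other stromal cells) per genotype. By the marker gate, however, fat progenitor-like cells were the largest class of both Lin+ libraries. They made up 59.9% of retained cells in Lin+ control and 37.6% in Lin+ iAdFASNKO. With 1 pooled library for each genotype and fraction there is no replicate and no test, and all values compare libraries, not conditions. Intervals are 95% intervals of counting error only. Which genotype a matrix holds was taken from its name alone, so directions between genotypes rest on that name.

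Growth factors acting through receptor tyrosine kinases turn on RAS and, through RAF and MEK, the kinase ERK, which enters the nucleus and induces early genes such as Fos and Egr1. Among the genes induced are the brakes of the pathway. Dual-specificity phosphatases (DUSPs) remove the activating phosphates of ERK and its relatives p38 and JNK, and Sprouty proteins act at the membrane between the receptor and RAF. In fat progenitors ERK activity is known to accompany proliferation and early commitment, and in mice Spry1 has been linked to the choice of mesenchymal cells between fat and bone. Transcripts of this kind also rise within minutes when tissue is digested, as it was here for 45 min at 37 °C per the labels.

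The promoters of Dusp1, Dusp5 and Spry1 are shown because these genes have the lowest ratios between genotypes in Lin+ progenitors described further on, and because Dusp1 and Dusp5 hold matches to motifs of signal-induced factors and Spry1 holds none. The sequences are RefSeq's for build GRCm38.p6, from 250 bases before the start of the gene as used there, each on the strand of its gene. Dusp1 lies at chr17:26508520-26508722 on the minus strand, Dusp5 at chr19:53528895-53529108 on the plus strand and Spry1 at chr3:37639697-37639946 on the plus strand. The Dusp1 window lies inside the longer span that GENCODE gives this gene, stated further on, so its start is not the outer end of that span. The bases nearest the start that GENCODE places in an exon of the gene were left out, 47 for Dusp1 and 36 for Dusp5. Capitals mark motif matches.
Dusp1: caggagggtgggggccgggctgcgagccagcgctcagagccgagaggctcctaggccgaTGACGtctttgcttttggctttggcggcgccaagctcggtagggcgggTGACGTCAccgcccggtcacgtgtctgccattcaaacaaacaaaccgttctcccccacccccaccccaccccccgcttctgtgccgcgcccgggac
Dusp5: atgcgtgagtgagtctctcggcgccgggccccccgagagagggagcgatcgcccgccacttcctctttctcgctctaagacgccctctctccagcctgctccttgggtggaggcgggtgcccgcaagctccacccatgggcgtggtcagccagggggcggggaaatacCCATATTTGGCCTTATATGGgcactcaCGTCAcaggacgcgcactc
Spry1: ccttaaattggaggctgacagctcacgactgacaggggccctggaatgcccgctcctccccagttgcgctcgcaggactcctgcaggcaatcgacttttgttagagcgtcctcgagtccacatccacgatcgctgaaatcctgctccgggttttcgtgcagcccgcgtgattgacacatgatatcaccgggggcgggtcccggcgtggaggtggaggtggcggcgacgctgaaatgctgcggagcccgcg
The motifs searched on both strands were the cAMP response element TGACGTCA, its core TGACG, the AP-1 site TGANTCA, the ETS site CCGGAAG, the NF-kB site GGGANTTTCC and the CArG box, to which serum response factor binds. Dusp1 holds a cAMP response element from 143 to 136 bases before its start, which contains the core on both strands, and a further core at 191 to 187. Dusp5 holds a pair of adjoining CArG boxes, at 82 to 73 and at 72 to 63 bases before its start, and a core on the other strand at 55 to 51. Of 27025 promoters of the same length, 1.62% held the full cAMP response element, 17.9% its core, 6.87% the AP-1 site, 7.05% the ETS site, 1.4% a CArG box and 0.337% the NF-kB site. The windows of Dusp2, Dusp6, Spry1 and Spry2 held none of these letters. A match describes the letters only, and binding was not measured.

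The 4 libraries held 3661 to 6133 barcodes, of which 14727 of 18336 were retained. Median UMIs per retained cell were 3298 in Lin+ iAdFASNKO, 5358 in Lin+ control, 4150 in Lin- iAdFASNKO and 9121 in Lin- control, so the iAdFASNKO libraries were shallower per cell in both fractions. The aim was about 6000 cells per library, per the labels. Between any 2 libraries 109 to 170 barcode sequences were shared. Classes were set by marker genes and are called by the name of the marker list with "-like": 13286 cells got a class, 421 matched more than 1 and 1020 none. Of 12740 cells named both by the markers and by an unsupervised clustering, 98.1% got the same name. Adipocytes, the cells of the deletion, are not among the classes: 1 cell in Lin- iAdFASNKO and 0 in the other libraries carried 3 or more adipocyte markers. Fasn in progenitor-like cells stood at 24.7 CPM (counts scaled to a common total for each class and library) in Lin+ iAdFASNKO against 40.5 in Lin+ control, and at 29.0 in Lin- iAdFASNKO against 43.9 in Lin- control. This does not check the labels, since 3' tags can lie outside the deleted part. In the GENCODE annotation of mm10, joined by gene identifier, the genes lie at chr17:26505590-26562128 (Dusp1, minus strand), chr2:127336159-127338376 (Dusp2, plus), chr19:53529109-53542431 (Dusp5, plus), chr10:99263231-99267489 (Dusp6, plus), chr3:37639947-37644598 (Spry1, plus) and chr14:105891947-105896819 (Spry2, minus). Dusp1 overlaps AC122252.1 and AC122252.4 on its own strand and others, Ergic1 among them, on the opposite strand. Dusp5, Spry1 and Spry4 overlap genes on the opposite strand only. Reads from a same-strand overlap could be counted elsewhere or the reverse, and the part of opposite-strand overlaps was not examined.

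**Figure D1:**
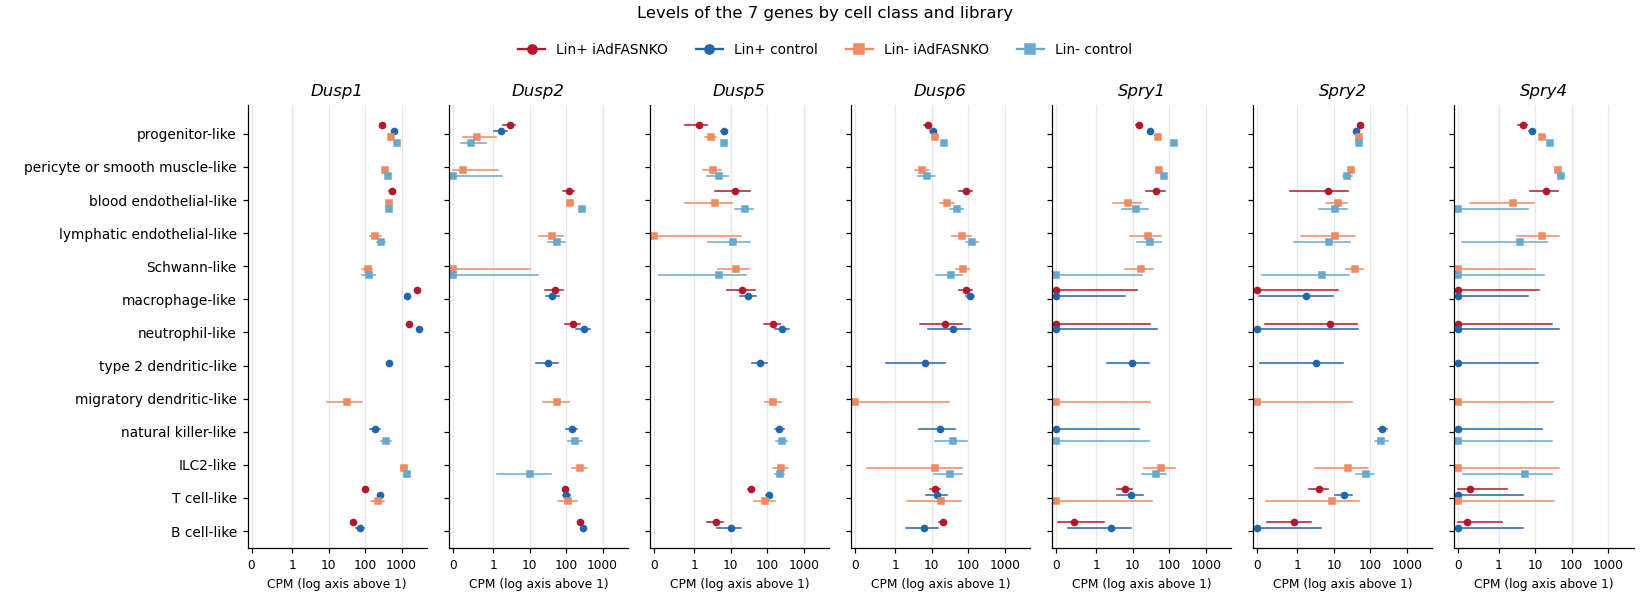
Level of each gene in CPM (linear below 1, logarithmic above) in every cell class with at least 30 cells in a library, 1 point per library with its 95% Poisson interval. Dusp1 spans from 32.9 CPM in migratory dendritic-like cells to 3007 CPM in neutrophil-like cells, while Spry1 and Spry4 points lie at or near 0 in most immune classes.

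The nuclear phosphatases had their highest levels in immune classes, with neutrophil-like cells among the 3 highest for each. Dusp1, which acts on p38 and JNK as well as ERK, was detected in every class. In neutrophil-like cells it stood at 1640 CPM in Lin+ iAdFASNKO and 3007 in Lin+ control, and in macrophage-like cells at 2641 in Lin+ iAdFASNKO and 1378 in Lin+ control. The ranges of these 2 classes over libraries overlap each other, and the macrophage-like range overlaps that of type 2 innate lymphoid (ILC2-like) cells, with 1163 CPM in Lin- iAdFASNKO and 1394 in Lin- control. None of these 3 ranges overlaps the progenitor-like range, which ran from 301 to 753 CPM over the 4 libraries. Blood endothelial-like cells (454 to 534 CPM) overlap the progenitor-like range. The lowest Dusp1 levels were those of B cell-like cells, at 47.3 CPM in Lin+ iAdFASNKO and 72.8 in Lin+ control, and of migratory dendritic-like cells, at 32.9 CPM in the Lin- iAdFASNKO library.

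Dusp2, a nuclear phosphatase of ERK known from activated lymphocytes, was a gene of lymphocytes, neutrophils and vessels here. B cell-like cells held 234 CPM in Lin+ iAdFASNKO and 294 in Lin+ control, and neutrophil-like cells 155 CPM in Lin+ iAdFASNKO and 299 in Lin+ control. In blood endothelial-like cells it had 118 CPM in Lin+ iAdFASNKO, 130 in Lin- iAdFASNKO and 274 in Lin- control. These 3 ranges overlap. Natural killer-like cells (143 to 178 CPM) overlap the neutrophil-like and blood endothelial-like ranges and lie below that of B cell-like cells. Fibroblastic classes were nearly empty of it: progenitor-like cells ran from 0.442 to 2.81 CPM, pericyte or smooth muscle-like cells held 1 UMI in Lin- iAdFASNKO and 0 in Lin- control, and Schwann-like cells 0 in both. Cells that matched more than 1 marker list took 27.3% of all Dusp2 UMIs of Lin- iAdFASNKO and 56.8% of those of Lin- control, while holding 4.09% of all UMIs in Lin- iAdFASNKO and 7.62% in Lin- control, so a large part of its Lin- signal belongs to no named class.

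Dusp5, a nuclear phosphatase restricted to ERK, was highest in natural killer-like cells, at 217 CPM in Lin+ control and 255 in Lin- control. ILC2-like cells followed at 242 CPM in Lin- iAdFASNKO and 220 in Lin- control, and neutrophil-like cells at 140 CPM in Lin+ iAdFASNKO and 262 in Lin+ control. These 3 ranges overlap. Migratory dendritic-like cells, at 148 CPM in the Lin- iAdFASNKO library, lie within the neutrophil-like range, and no T cell-like, type 2 dendritic-like, macrophage-like or stromal value reached it. T cell-like cells had 35.2 CPM in Lin+ iAdFASNKO, 112 in Lin+ control and 88.3 in Lin- iAdFASNKO. Progenitor-like cells ran from 1.36 to 6.71 CPM and pericyte or smooth muscle-like cells from 3.21 to 4.65, the lowest places in the order.

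Dusp6, the cytoplasmic phosphatase of ERK, was led by macrophage-like cells, with 87.3 CPM in Lin+ iAdFASNKO and 110 in Lin+ control. Lymphatic endothelial-like cells, at 67.7 CPM in Lin- iAdFASNKO and 128 in Lin- control, overlap that range. Blood endothelial-like (26.5 to 87.3 CPM) and Schwann-like cells (32.9 to 70.9) came next and overlap each other. Nearly all further neighbours in its order also overlap, down to pericyte or smooth muscle-like cells at 5.43 CPM in Lin- iAdFASNKO and 7.43 in Lin- control.

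The Sprouty genes split by cell type. Spry1 and Spry4 had their highest mean levels in pericyte or smooth muscle-like cells, which held 50.6 CPM of Spry1 in Lin- iAdFASNKO and 70.6 in Lin- control. In the same cells Spry4 stood at 42.2 CPM in Lin- iAdFASNKO and 52.5 in Lin- control, above its whole progenitor-like range of 4.62 to 26.3. Spry1 in progenitor-like cells covered the widest span, highest over lowest library, of the 7 genes there, from 14.3 to 132 CPM, and its range overlaps those of the pericyte-like and ILC2-like cells. The ILC2-like cells, an immune class, held 60.6 CPM of Spry1 in Lin- iAdFASNKO and 41.9 in Lin- control, from only 5 and 8 UMIs. Of these cells, 19 of 32 in Lin- iAdFASNKO and 18 of 45 in Lin- control held the fewest markers the gate allows. The part of progenitor transcripts in these UMIs was not tested, so they do not show whether Spry1 is confined to the stroma. Macrophage-like, neutrophil-like, natural killer-like and migratory dendritic-like cells held 0 UMIs of Spry1 and of Spry4 in every library counted. For Spry1 in macrophage-like cells a count of 0 allows, at 3 counts of the class total, up to 10.5 CPM in Lin+ iAdFASNKO and 5.06 in Lin+ control.

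Spry2 behaved otherwise. Natural killer-like cells had the highest level, 213 CPM in Lin+ control and 201 in Lin- control, with no overlap with the next class, ILC2-like, at 24.2 CPM in Lin- iAdFASNKO and 73.4 in Lin- control. In progenitor-like cells it kept to a narrow band, 52.6 CPM in Lin+ iAdFASNKO, 40.7 in Lin+ control, 48.5 in Lin- iAdFASNKO and 49.9 in Lin- control. Because these cells are numerous they held 76.6% to 90.4% of all Spry2 UMIs of a library. The plot of levels by cell class shows this as 4 progenitor points almost on top of each other.

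Between genotypes, the question posed by the knockout design, the clearest pattern lay in progenitor-like cells: most of the brakes were lower in iAdFASNKO and Spry2 was not. Genes with 20 or more UMIs over the pair of libraries were taken as measured. A gene was called higher where the ratio of iAdFASNKO over control reached 1.5, lower where it was 1/1.5 or less, and in both cases only if the 95% interval did not include 1. The alternative with the mean of per-cell CPM had no interval, so its counts rest on the fold alone. In Lin-, 4 of 6 measured genes were lower, against 5.76% of all genes measured, and 0 were higher, against 9.58%. In Lin+, 4 of 7 were lower, against 4.1% of all genes, and 0 higher, against 9.21%. The members were chosen with earlier results of these libraries known, so the counts describe them and are no test.

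Spry1 differed most in Lin-. It stood at 48.7 CPM (45.0 to 52.6) in Lin- iAdFASNKO against 132 CPM (127 to 137) in Lin- control, a ratio of 0.369 (0.339 to 0.402). In Lin+ it stood at 14.3 CPM (12.2 to 16.7) in iAdFASNKO against 29.5 CPM (26.8 to 32.4) in control, a ratio of 0.485 (0.402 to 0.583). A Spry1 UMI was seen in 20.8% of Lin- iAdFASNKO and 53.4% of Lin- control progenitor-like cells. Thinned to 2000 UMIs per cell, which 2018 of 2289 and 2066 of 2224 cells reached, the shares were 9.56% (8.32 to 10.9) and 21.5% (19.7 to 23.3). At equal depth the shares thus still differed. In Lin+ the shares were 5.77% of iAdFASNKO and 15.1% of control cells, and 2.09% and 4.52% after thinning. In B cell-like cells, a type that should lack the gene, the shares were 0.154% in Lin+ iAdFASNKO and 0.617% in Lin+ control, with 2486 and 2279.5 UMIs as the median per cell.

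Spry4 had 15.5 CPM in Lin- iAdFASNKO against 26.3 in Lin- control, a ratio of 0.590 (0.501 to 0.692). In Lin+ it had 4.62 CPM in iAdFASNKO against 8.28 in control, a ratio of 0.558 (0.394 to 0.778). Within the Lin+ subsets given further on, Spry4 was not called in any. Spry2, their close relative, gave 0.972 (0.881 to 1.07) in Lin- and 1.29 (1.15 to 1.45) in Lin+, short of the fold used. The Lin- ratios of Spry1 and Spry4 lie outside that Lin- interval of Spry2. With the mean of per-cell CPM the Lin- Spry4 ratio was 0.705, short of the fold.

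Among the phosphatases, Dusp5 was lower in both fractions, at 2.87 CPM in Lin- iAdFASNKO against 6.71 in Lin- control (ratio 0.428, 0.292 to 0.614). In Lin+ it was at 1.36 CPM in iAdFASNKO against 6.49 in control (0.209, 0.113 to 0.362), from 15 and 98 UMIs. Dusp6 was lower in Lin-, at 12.2 CPM in iAdFASNKO against 21.9 in control (0.558, 0.464 to 0.668). In Lin+ it gave 7.70 CPM in iAdFASNKO against 10.5 in control (0.735, 0.558 to 0.963), short of the fold. Dusp1 passed in Lin+, where 301 CPM in iAdFASNKO against 613 in control gave 0.490 (0.471 to 0.510). In Lin-, 517 CPM in iAdFASNKO against 753 in control gave 0.686 (0.667 to 0.706), just short of 1/1.5. Dusp2 had 31 UMIs in Lin+ iAdFASNKO and 25 in Lin+ control (1.69, 0.968 to 2.99), and 8 UMIs in Lin- iAdFASNKO and 10 in Lin- control, too few to be measured.

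Other properties of the progenitor-like cells differed between the same libraries. Median UMIs per cell were 5846 in Lin+ iAdFASNKO against 8312 in Lin+ control, and 5337 in Lin- iAdFASNKO against 10384 in Lin- control. Median mitochondrial shares were 1.83% against 3.46% in Lin+ and 1.42% against 3.14% in Lin-, iAdFASNKO against control. The summed red blood cell markers were at 7004 CPM in Lin+ iAdFASNKO against 4608 in Lin+ control, and at 11.7 against 10.6 CPM in Lin-. Of 9 heat shock genes 5 were lower in Lin+ and 4 in Lin-, against 4.1% and 5.76% of all genes. The part of these in the differences was not tested.

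**Figure D2:**
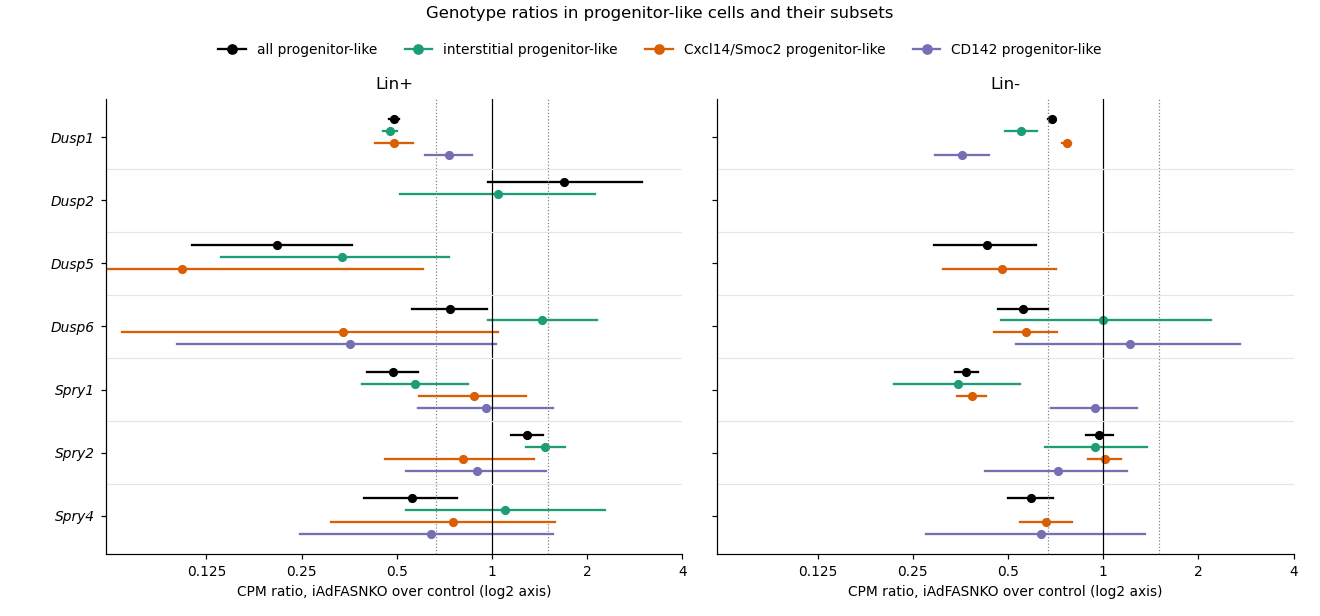
CPM ratio of iAdFASNKO over control (log2 axis) for each measured gene in all progenitor-like cells and in 3 subsets, Lin+ left and Lin- right, with 95% intervals; dotted lines mark 1.5-fold either way, and the lower end of the Dusp5 interval of the Lin+ Cxcl14/Smoc2 subset lies beyond the axis. Spry1 stays near 0.35 to 0.38 in the interstitial and Cxcl14/Smoc2 subsets of Lin- and near 1 in the CD142 subset, and the Spry2 interval includes 1 in every Lin- subset.

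The progenitor-like class is mixed, and the subsets differ in size between libraries. Cells with markers of interstitial progenitors (Pi16, Dpp4) numbered 1142 in Lin+ iAdFASNKO, 917 in Lin+ control, 230 in Lin- iAdFASNKO and 106 in Lin- control. Cells with Cxcl14, Smoc2 or commitment markers numbered 64, 292, 1240 and 1422 in the same libraries, and CD142 (F3) cells 133, 144, 165 and 147. Values are therefore also given within each subset.

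Within subsets of Lin-, Spry1 was lower in interstitial cells, at 17.7 CPM in iAdFASNKO against 50.9 in control (0.348, 0.217 to 0.547), and in Cxcl14/Smoc2 cells, at 55.0 against 143 CPM (0.384, 0.345 to 0.426). In CD142 cells it was at 95.8 CPM in iAdFASNKO against 102 in control (0.940, 0.684 to 1.28). The interval of the CD142 ratio lies wholly above those of the other 2 subsets. The Lin+ ratios were 0.573 (0.387 to 0.838) in interstitial, 0.880 (0.587 to 1.28) in Cxcl14/Smoc2 and 0.955 (0.583 to 1.56) in CD142 cells. The interstitial value passed the fold in Lin+, at 0.364 with the mean of per-cell CPM, and the other 2 did not.

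Dusp1 showed another order. In Lin- it was lowest relative to control in CD142 cells, at 189 CPM in iAdFASNKO against 526 in control (0.359, 0.294 to 0.434). Interstitial cells gave 312 against 566 CPM (0.551, 0.491 to 0.619), and Cxcl14/Smoc2 cells 620 against 810 CPM (0.766, 0.741 to 0.792), short of the fold. In Lin+ the ratio was 0.731 (0.614 to 0.868) in CD142, 0.475 (0.451 to 0.50) in interstitial and 0.491 (0.426 to 0.563) in Cxcl14/Smoc2 cells. Counting all measured members of Lin-, 4 of 6 were lower in Cxcl14/Smoc2 cells, against 7.24% of genes, 2 of 4 in interstitial cells, against 6.26%, and 1 of 5 in CD142 cells, against 8.44%. In Lin+ 2 of 6 were lower in Cxcl14/Smoc2 cells, against 3.28%, 3 of 7 in interstitial cells, against 3.53%, and 0 of 5 in CD142 cells, against 3.02%. In those Lin+ CD142 cells 1 member was lower when divided by the median ratio, with the looser cell filter, without shared barcodes or without the top cell, and 2 with the mean of per-cell CPM. No member was called higher in any subset, where 6.76% (Cxcl14/Smoc2), 7.29% (interstitial) and 6.92% (CD142) of genes were in Lin-, and 5.7%, 8.59% and 4.58% in Lin+.

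Dusp5 and Dusp6 were both lower in the Lin- Cxcl14/Smoc2 subset. Dusp5 was at 3.95 CPM in Lin- iAdFASNKO against 8.29 in Lin- control there (0.477, 0.311 to 0.710), and in Lin+ 1 UMI in iAdFASNKO stood against 54 in control (0.104, 0.00260 to 0.607). Of those 54 UMIs, 9 came from 1 cell. Dusp5 was lower in Lin+ interstitial cells as well, at 1.12 CPM in iAdFASNKO against 3.35 in control (0.335, 0.139 to 0.730), from 9 and 28 UMIs. Dusp6 was at 12.5 CPM in Lin- iAdFASNKO against 21.9 in Lin- control (0.571, 0.451 to 0.716) in this subset. In interstitial cells of Lin- it had 11.4 CPM in both genotypes, a ratio of 1.00 (0.474 to 2.19). Spry4 was lower in Lin- Cxcl14/Smoc2 cells, at 19 CPM in iAdFASNKO against 28.8 in control (0.660, 0.545 to 0.796). In Lin+ the Spry4 ratios were 1.10 in interstitial, 0.752 in Cxcl14/Smoc2 and 0.640 in CD142 cells. Those of Dusp6 in Lin+ were 1.44, 0.338 and 0.356 in the same order. Those of Spry2 in Lin+ were 1.48, 0.812 and 0.894, so its narrow band over the whole class holds subsets on both sides of 1. None of these Lin+ values was called.

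Clustering the cells without the 7 genes gave 9 clusters that the marker lists name progenitor with at least 30 cells of both Lin- libraries, and 6 with at least 30 of both Lin+ libraries. The leading genes of 2 of them, set against the other such clusters, go against that name, and they are given by number only. Cluster 2 is led by B cell, plasma cell and red blood cell genes (Iglc3, Jchain, Ighm, Hbb-bt), although 60.1% of its cells carried interstitial markers. Cluster 13 is led by Sfrp5, Kcna1 and Itgb4. Sfrp5 and Cldn1 also lead the perineurial-like class, too small to be compared here, and Kcna1, Mal and Gatm the Schwann-like class. In cluster 13, 1.09%, 4.92% and 7.10% of cells fell in the interstitial, Cxcl14/Smoc2 and CD142 subsets. Counts without these 2 clusters, a choice made after seeing the data, follow the full counts. A cluster led by Cxcl1, Ccl7, Ptx3 and Gadd45b, numbered 12, carried the highest sum over 19 early genes, 24286 CPM. Its Lin- values rest on 247 iAdFASNKO and 497 control cells. Cluster 17, led by Cxcl14, Ndufa4l2, Cldn15 and Smoc2, came next with 15536 CPM, from 306 Lin- iAdFASNKO and 958 Lin- control cells, and Spry1 itself, though kept out of the clustering, is among its leading genes. Cluster 3, led by the immunoglobulin gene Igkc and then Fgf10, Fabp4 and Cdh11, had 8378 CPM, from 972 Lin- iAdFASNKO and 280 Lin- control cells. With 62.1% of its cells in the Cxcl14/Smoc2 subset, it was kept in the counts without clusters 2 and 13.

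Within clusters, the Dusp1 and Spry1 differences came apart. Dusp1 was at 1210 CPM in Lin- iAdFASNKO against 1305 in Lin- control in cluster 12 (0.927, 0.884 to 0.972). In cluster 17 it was at 710 against 607 CPM (1.17, 1.10 to 1.24), and in cluster 3 at 374 against 335 CPM (1.12, 1.03 to 1.21). In these 3 clusters, which hold most Lin- progenitor-like cells, no Dusp1 ratio passed the fold, and in 4 of the 9 (numbers 2, 5, 10 and 11) it was lower, with ratios down to 0.366, or in 3 of 7 without clusters 2 and 13. The share of all genes called lower in a Lin- cluster ran from 5.72% to 11.2%. In Lin+, 5 of 6 clusters, or 4 of 5 without cluster 2, had lower Dusp1, with ratios of 0.471 to 0.618, where 2.96% to 4.2% of genes were called lower.

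Spry1 in Lin- was lower in 4 of 7 clusters where it was measured, or in 3 of 6 without cluster 13. In cluster 17 it was at 72.3 CPM in iAdFASNKO against 185 in control (0.390, 0.325 to 0.465), and in cluster 12 at 71.6 against 134 CPM (0.534, 0.441 to 0.642). In cluster 3 it was at 41.2 against 78.3 CPM (0.527, 0.431 to 0.644). Cluster 13 had 43.5 CPM in iAdFASNKO against 117 in control, from 13 and 26 UMIs. No difference of this size was seen in cluster 11, which is rich in CD142 cells, at 118 CPM in iAdFASNKO against 112 in control (1.05, 0.726 to 1.52), or in cluster 4, at 28.8 against 24.3 CPM (1.19, 0.634 to 2.19). In Lin+ 0 of 6 clusters passed for Spry1, with 26 to 89 UMIs over both libraries. There 4 ratios lay beyond 1/1.5 with intervals that include 1, at 0.640 in cluster 2, 0.654 in cluster 3, 0.641 in cluster 5 and 0.477 in cluster 10, and those of clusters 4 and 11 were 1.39 and 1.10. Spry2 was called in 0 of 8 Lin- clusters, with ratios of 0.904 to 1.31, and was higher in 1 of 6 Lin+ clusters. The other members were mostly not called within clusters. Dusp6 was lower in 1 of 7 Lin- clusters, number 17 (0.468, 0.297 to 0.706), and higher in 1 of 4 Lin+ clusters, number 5 (1.60, 1.01 to 2.59). Spry4 was lower in 1 of 4 Lin- clusters, number 12 (0.478, 0.298 to 0.735), and at 0.988 in cluster 17, and was called in 0 of 2 Lin+ clusters. Dusp5 was lower in 1 of 2 Lin- clusters, number 12 (0.601, 0.354 to 0.973). Genes called higher made up 4.14% to 8.65% in Lin- clusters and 5.15% to 9.03% in Lin+ clusters.

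**Figure D3:**
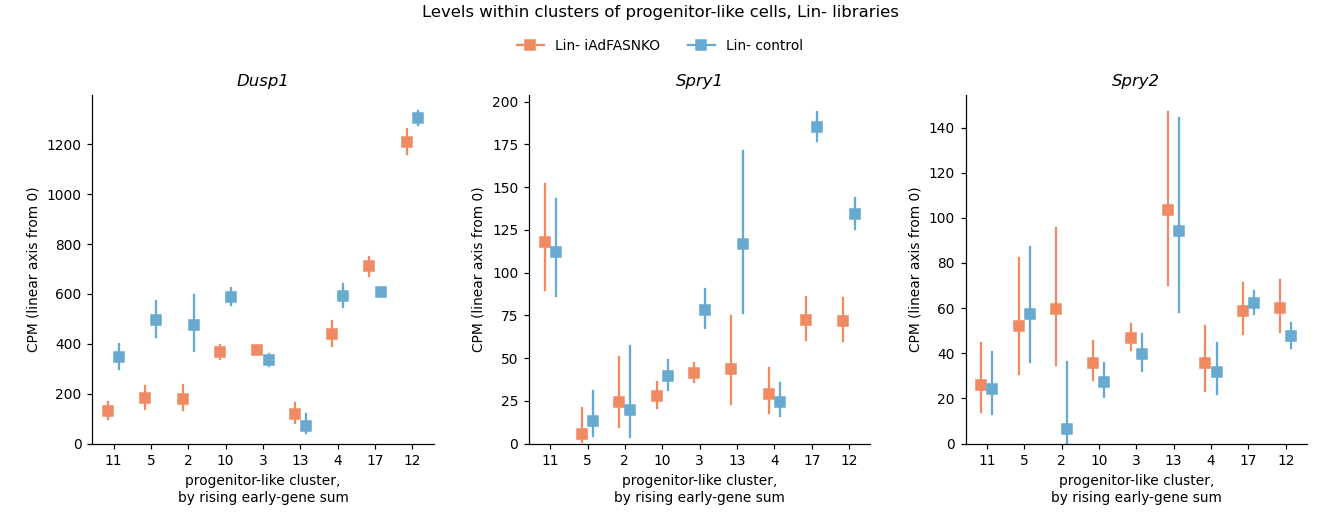
Dusp1, Spry1 and Spry2 in CPM (linear axes from 0) in the Lin- clusters named progenitor by the marker lists (numbers 2 and 13 included), ordered from the lowest to the highest sum of early genes, with 95% Poisson intervals, iAdFASNKO left of control in each cluster. Dusp1 climbs to 1210 and 1305 CPM in cluster 12 with the genotypes close together, while Spry1 in clusters 17 and 12 lies at 72.3 and 71.6 CPM in iAdFASNKO against 185 and 134 CPM in control.

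Pericyte or smooth muscle-like cells of Lin-, 876 in iAdFASNKO and 264 in control, gave no member past the fold. Of 6 measured genes 0 were lower, against 7.26% of genes, and 0 higher, against 2.36%. Spry1 had a ratio of 0.717 (0.578 to 0.890), Spry4 0.804 (0.630 to 1.03) and Dusp1 0.846 (0.777 to 0.921). The Spry1 interval lies wholly above that of Lin- progenitor-like cells. Here 7 of 9 heat shock genes were lower, among them Hspa1a at 512 CPM in iAdFASNKO against 1489 in control (0.344, 0.325 to 0.363).

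Macrophage-like cells went the opposite way for Dusp1. There were 60 in Lin+ iAdFASNKO and 116 in Lin+ control, and none in the Lin- libraries. Dusp1 stood at 2641 CPM (2456 to 2836) in Lin+ iAdFASNKO against 1378 CPM (1285 to 1475) in Lin+ control, a ratio of 1.92 (1.73 to 2.12). That was 1 of 4 measured members higher, against 2.86% of genes, with 0 lower, against 7.91%. Dusp6, whose order of levels these cells lead, was at 87.3 CPM in iAdFASNKO against 110 in control (0.797, 0.481 to 1.28). Dusp2 (1.16, 0.557 to 2.32) and Dusp5 (0.690, 0.224 to 1.82) had too few UMIs to tell apart at this depth. A Dusp1 UMI was seen in 75.0% of iAdFASNKO and 74.1% of control macrophage-like cells, whose median depths were 4238 and 4685 UMIs. After thinning to 2000 UMIs the shares were 78.7% and 63.0%. Only cells with at least 2000 UMIs entered these, so they rest on fewer than the 60 and 116 cells. The thinned shares are too coarse at such numbers to be read as a difference in detection.

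Markers of other cells differed between the same macrophage-like cells. Neutrophil markers, from the class with the highest Dusp1, summed to 646 CPM in iAdFASNKO, with 4 of 7 detected and Retnlg, Cxcr2 and Ly6g at 0, against 1263 CPM in control, with 6 of 7 detected and Ly6g at 0. Monocyte markers summed to 604 against 1076 CPM and T cell markers to 164 against 13.5 CPM. Red blood cell transcripts summed to 32193 against 13189 CPM. Median mitochondrial shares were 5.40% and 5.16%. The part of these in the Dusp1 difference was not tested.

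**Figure D4:**
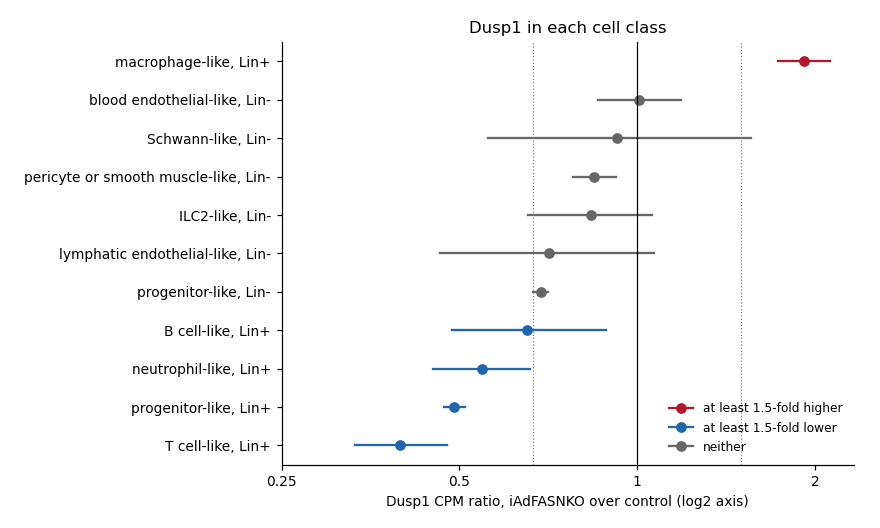
Dusp1 CPM ratio of iAdFASNKO over control (log2 axis) in each class and fraction with at least 30 cells in both libraries, with 95% intervals; dotted lines mark 1.5-fold either way. Macrophage-like cells, at 1.92, are the only class past the line on the higher side, and 4 classes of Lin+ are past it on the lower side.

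Lymphocyte-like cells and neutrophil-like cells of Lin+ had lower Dusp1. T cell-like cells, 693 in iAdFASNKO and 186 in control, had 102 CPM in iAdFASNKO against 256 in control (0.397, 0.332 to 0.476). Dusp5 in the same cells was at 35.2 against 112 CPM (0.314, 0.236 to 0.419), and Spry2 at 3.92 against 19.4 CPM (0.202, 0.0886 to 0.456), from 13 and 15 UMIs. That made 3 of 6 measured members lower, against 6.41% of genes, and 0 higher, against 2.49%. With the stricter cell filter the Spry2 ratio was 0.588. Dusp2, the member most tied to lymphocytes, was at 92.5 against 101 CPM (0.919, 0.714 to 1.19). Natural killer markers, of the class richest in Dusp5 and Spry2, summed to 490 CPM in the iAdFASNKO and 791 CPM in the control T cell-like cells, and their part in these differences was not tested.

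In B cell-like cells, 1301 in iAdFASNKO and 324 in control, Dusp1 was at 47.3 CPM in iAdFASNKO against 72.8 in control (0.651, 0.485 to 0.884), 1 of 4 measured members lower against 3.2% of genes. Dusp6 was the 1 member higher, against 1.95% of genes, at 19.9 CPM in iAdFASNKO against 6.17 in control (3.23, 1.33 to 10.2), with 5 UMIs in control. The Dusp6 call ended under a looser and under a stricter cell filter, and the Dusp1 call with Leiden classes, at a fold of 2 and with CPM without mitochondrial, ribosomal protein and haemoglobin genes. Neutrophil-like cells, 52 in iAdFASNKO and 37 in control, had Dusp1 at 1640 CPM in iAdFASNKO against 3007 in control (0.545, 0.451 to 0.659) and Dusp2 at 155 against 299 CPM (0.519, 0.272 to 0.980). These 2 of 3 measured members stood against 12.4% of genes called lower in that class, with 0 higher against 7.4%, and 6 alternatives left 1 and a fold of 2 left 0.

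Blood endothelial-like cells of Lin-, 149 in iAdFASNKO and 66 in control, kept Dusp1 level, at 457 CPM in iAdFASNKO against 454 in control (1.01, 0.857 to 1.19). Dusp2 was at 130 against 274 CPM (0.473, 0.366 to 0.611) and Dusp6 at 26.5 against 48.9 CPM (0.541, 0.292 to 0.988). These were 2 of 3 measured members lower, against 7.54% of genes, with 0 higher against 5.72%. The count was 1 when divided by the median ratio, with the stricter gate, without shared barcodes, without the top cell and at a fold of 2. Egr1 and Egr3 were lower in the same cells, at 330 against 681 CPM and at 12.6 against 85.5 CPM, while 4 of 9 heat shock genes were higher, led by Hspb1 at 1623 against 606 CPM. Lymphatic endothelial-like and Schwann-like cells had 0 members called, of 3 and 2 measured, where 6.17% and 5.03% of genes were lower and 3.43% and 3.67% higher. Dusp6 was past the fold in both with an interval that includes 1, at 67.7 CPM in iAdFASNKO against 128 in control (0.528, 0.256 to 1.03) in lymphatic endothelial-like and at 70.9 against 32.9 CPM (2.16, 0.911 to 5.88) in Schwann-like cells. With Leiden classes 2 members were lower in lymphatic endothelial-like cells, and with doublets kept or the mean of per-cell CPM 1 was. In Schwann-like cells 1 was higher with that mean, with no UMI minimum and without the top cell.

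ILC2-like cells of Lin-, 32 in iAdFASNKO and 45 in control, had Dusp2 at 242 CPM in iAdFASNKO against 10.5 in control (23.1, 5.62 to 204), 1 of 3 measured members higher against 7.87% of genes, with 0 lower against 6.39%. Of the 20 iAdFASNKO UMIs, 16 came from 1 cell. With the top cell of each library left out the interval included 1 and the call ended. The ratio was at least 8.93 in each of the 10 settings that gave a value. Dusp1 (0.834, 0.654 to 1.06) and Dusp5 (1.10, 0.612 to 1.92) had intervals that include 1.

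The sort itself gave the second comparison, Lin+ over Lin- within a genotype. Progenitor-like cells of the Lin+ fraction were poorer in Spry1 and Spry4. In iAdFASNKO, Spry1 was at 14.3 CPM in Lin+ against 48.7 in Lin- (0.294, 0.245 to 0.350) and Spry4 at 4.62 against 15.5 CPM (0.298, 0.215 to 0.407). In control, Spry1 was at 29.5 CPM in Lin+ against 132 in Lin- (0.224, 0.202 to 0.247) and Spry4 at 8.28 against 26.3 CPM (0.315, 0.258 to 0.383). Of 7 measured members 5 were lower in iAdFASNKO, against 10.7% of genes, the others being Dusp1, Dusp5 and Dusp6. In control 3 were lower, against 9.46%, the third being Dusp6 at 0.477 (0.396 to 0.572). Dusp2 was higher in Lin+ in both, at 4.64 (2.09 to 11.7) against 17.5% of genes higher in iAdFASNKO and at 3.75 (1.74 to 8.75) against 12.4% in control, where it was 11.01 without the top cell. B and T cell markers in these cells moved with it: B cell markers summed to 46.0 CPM in Lin+ against 1.7 in Lin- for iAdFASNKO, and to 19.1 against 1.5 for control, and their part was not tested.

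Because the Lin+ progenitors were mostly interstitial and the Lin- ones mostly Cxcl14/Smoc2, the subsets bear on this contrast. Within interstitial cells Spry1 was still lower in Lin+, at 0.310 (0.191 to 0.507) in iAdFASNKO and 0.188 (0.132 to 0.268) in control. Within CD142 cells the ratios were 0.413 (0.265 to 0.635) in iAdFASNKO and 0.407 (0.275 to 0.591) in control. Within Cxcl14/Smoc2 cells they were 1.10 (0.743 to 1.58) in iAdFASNKO and 0.480 (0.414 to 0.554) in control. Spry1 was lower in Lin+ in 5 of these 6. The 2 genotypes share no library in this comparison, but the subsets within a genotype come from the same 2 libraries and are not separate observations. Counts of members lower were 1 of 5 in iAdFASNKO (background 9.0%) and 3 of 6 in control (5.35%) for interstitial cells, 1 of 3 (6.62%) and 1 of 5 (8.17%) for CD142 cells, and 0 of 6 (3.04%) and 1 of 6 (5.25%) for Cxcl14/Smoc2 cells. The iAdFASNKO Cxcl14/Smoc2 count was 2 under 5 alternatives (CPM without mitochondrial, ribosomal protein and haemoglobin genes, the median ratio, the mean of per-cell CPM, the stricter gate and without the top cell) and 1 with the stricter cell filter. The 1 member higher was Dusp5 in control Cxcl14/Smoc2 cells, at 18.1 CPM in Lin+ against 8.29 in Lin- (2.18, 1.56 to 3.02), where 4.58% of genes were higher. In the other subsets 0 were higher, against 6.2% of genes in iAdFASNKO Cxcl14/Smoc2 cells, 14.6% and 6.77% in iAdFASNKO and control interstitial cells and 7.05% and 4.91% in iAdFASNKO and control CD142 cells.

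Other classes allowed the same comparison in places. T cell-like cells of iAdFASNKO had Dusp1 at 102 CPM in Lin+ against 230 in Lin- (0.442, 0.297 to 0.687) and Dusp5 at 35.2 against 88.3 CPM (0.399, 0.210 to 0.854), 2 of 5 measured against 9.11% of genes lower, with 0 higher against 2.53%. With Leiden classes that Dusp1 ratio was 0.705, and 1 member was lower there, without the top cell and with CPM without mitochondrial, ribosomal protein and haemoglobin genes. Natural killer-like cells of control had Dusp1 at 188 CPM in Lin+ against 379 in Lin- (0.498, 0.326 to 0.760), 1 of 4 lower against 3.41% of genes, with 0 higher against 7.28%, and at 0.895 with Leiden classes. Blood endothelial-like cells of iAdFASNKO had Dusp6 at 87.3 CPM in Lin+ against 26.5 in Lin- (3.30, 1.79 to 6.17), 1 of 3 higher against 14.1% of genes, with 0 lower against 9.1%. Spry2 in natural killer-like cells was at 213 CPM in Lin+ against 201 in Lin- (1.06, 0.650 to 1.77).

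The wider pathway separated into genes that followed the members and genes that did not. Among 19 early genes that ERK induces, 10 of 18 measured were lower and 0 higher in Lin+ progenitor-like cells of iAdFASNKO, with a median log2 ratio of -0.62 against 0.12 for all genes. In Lin- 7 of 19 were lower and 1 higher, with a median of -0.44 against 0.04. The shares of all genes were 4.1% lower and 9.21% higher in Lin+, and 5.76% and 9.58% in Lin-. The zinc finger factor Egr3 was at 4.17 CPM in Lin+ iAdFASNKO against 22.3 in Lin+ control (0.187, 0.134 to 0.254), and at 18.7 CPM in Lin- iAdFASNKO against 57.3 in Lin- control (0.327, 0.284 to 0.375). Egr2 (0.281 in Lin+, 0.438 in Lin-) and the AP-1 gene Fosl1 (0.282 and 0.326) were lower in both fractions. Myc was lower in Lin-, at 15.3 CPM in iAdFASNKO against 41.0 in control (0.374, 0.320 to 0.436). The ETS factors Etv1 and Etv5, which with Dusp6 and the Sprouty genes are typical targets of FGF signalling, were not lower in Lin-. There Etv1 was at 33.0 against 21.3 CPM (1.55) and Etv5 at 11.6 against 10.3 CPM (1.12). Both were picked after their values were seen. Their Lin+ values and those of Etv4, also among the 19, are not given, and a part of FGF signalling was not tested.

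In macrophage-like cells 8 of 16 measured early genes were higher and 2 lower, with a median of 0.55 against -0.14 for all genes. The shares of all genes there were 2.86% higher and 7.91% lower. Egr1 was at 1635 CPM in iAdFASNKO against 654 in control (2.50, 2.18 to 2.87) and Jun at 3545 against 1523 CPM (2.33, 2.13 to 2.55). Egr2 was at 14.0 against 99.5 CPM (0.140, 0.0370 to 0.379) and Egr3 at 3.49 against 92.7 CPM (0.0377, 0.000937 to 0.219), from 1 and 55 UMIs. The EGR genes thus split in macrophages, while in progenitors Egr2 and Egr3 were lower and Egr1 was at 0.578 in Lin+ and 0.833 in Lin-. In T cell-like cells 7 of 13 were lower and 0 higher, against 6.41% and 2.49% of all genes, with a median of -0.63.

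**Figure D5:**
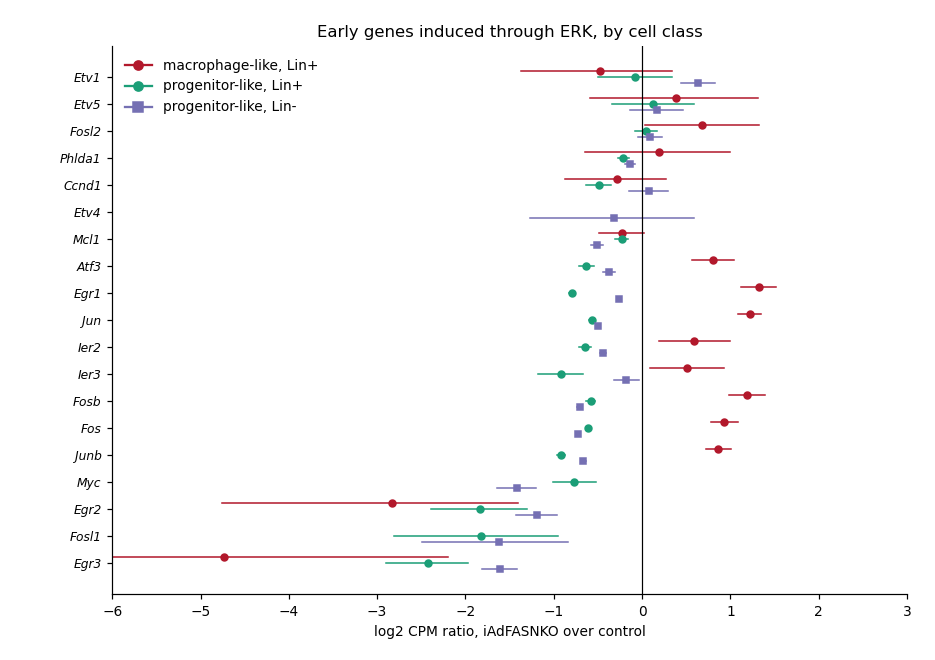
Log2 CPM ratio of iAdFASNKO over control for 19 early genes in macrophage-like cells of Lin+ and progenitor-like cells of Lin+ and Lin-, with 95% intervals, each shown where it has at least 20 UMIs over both libraries; the macrophage Egr3 interval runs past the left edge. Most macrophage points lie right of 0 and most progenitor points left of it, and Egr2 and Egr3 lie left of 0 in all 3.

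Few of the remaining brakes of the pathway passed the fold. Of 11 further feedback genes (Dusp4, Dusp7, Dusp9, Spry3, Spred1, Spred2, Spred3, Il17rd, Errfi1, Rasa1, Nf1), 0 of 9 measured passed in either direction in Lin- progenitor-like cells, with a median of 0.08. In Lin+ 1 of 8 did, Spred3, a Sprouty-related gene, at 10.2 CPM in iAdFASNKO against 6.03 in control (1.70, 1.28 to 2.26). Among all genes, 9.58% were higher and 5.76% lower in Lin-, and 9.21% and 4.1% in Lin+. Counts this small do not set the list apart from all genes. Spred1 was at 82.9 CPM in Lin- iAdFASNKO against 95.1 in Lin- control (0.872, 0.810 to 0.938), and Dusp7, a cytoplasmic relative of Dusp6, at 22.3 against 27.6 CPM (0.807, 0.700 to 0.928). None passed in macrophage-like (5 measured), pericyte-like (9) or Lin- blood endothelial-like cells (6). In these classes 2.86%, 2.36% and 5.72% of all genes were higher and 7.91%, 7.26% and 7.54% lower. The phosphatases that act mainly on p38 and JNK had 1 of 3 lower in Lin- progenitors, Dusp10 at 4.53 against 8.21 CPM (0.552, 0.406 to 0.742).

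Few genes of the cascade itself passed the fold in progenitors. Of 18 genes from RAS to the ERK-activated kinases, 0 of 18 passed in Lin+ and 1 of 17 in Lin-, Hras at 32 CPM in iAdFASNKO against 54.8 in control (0.583, 0.521 to 0.652). Of all genes, 4.1% were lower and 9.21% higher in Lin+, and 5.76% and 9.58% in Lin-. With so few genes, these counts do not set the cascade apart from all genes. Receptor tyrosine kinases had 5 of 11 higher and 1 lower in Lin+ progenitors, against 9.21% and 4.1% of all genes, and 4 of 13 higher in Lin-, against 9.58%. Several are markers of vessels (Kdr, Flt1, Flt4, Tek), and blood endothelial markers summed to 92.1 CPM in Lin- iAdFASNKO against 43.1 in Lin- control progenitor-like cells and to 30.6 against 31.5 CPM in Lin+. Their part in the receptor values was not tested. Some receptors are also among the markers that set the classes.

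Some genes linked to handling and stress were lower in progenitors too. Of 9 heat shock genes, 5 were lower in Lin+ and 4 in Lin-, against 4.1% and 5.76% of all genes, with Hspb1 at 101 CPM in Lin+ iAdFASNKO against 214 in Lin+ control (0.473, 0.442 to 0.507). Of 8 attenuators of inflammatory signalling, 2 were lower in Lin+ and 3 in Lin-, with Socs3 at 0.485 (0.451 to 0.520) and 0.415 (0.392 to 0.438) and Zfp36 at 0.514 and 0.574. In macrophage-like cells 2 of 9 heat shock genes were lower, against 7.91% of all genes. Dusp1 and 8 of 16 early genes were higher there, against 2.86% of all genes. Among 6 glucocorticoid-induced genes, a class to which Dusp1 also belongs, Zbtb16 was higher (1.65 in Lin+, 1.93 in Lin-) and Sgk1 lower (0.575 and 0.587) in progenitors. The part of tissue handling in the member values was not tested.

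Across the 28 sums of a class and library, 11988 genes were ranked by how closely their log2(CPM + 10) followed each member. These sums share libraries and depth, and the correlations are descriptions over class and library sums. Spry4 was the gene most like Spry1 (Pearson r = 0.78), ahead of Slc22a4, Cyth3, Akap1 and Acvr2a, while for Spry4 the place of Spry1 was 119. Spry4 was most like Zbtb7c (0.92), Ndufa4l2, Usp13, Hrct1 and Fam13c. Spry2 was most like Eya2 (0.85), Fhl2, Adamts14, Kcnip3 and Plod2, with Spry1 at 0.33 and Spry4 at 0.23. Dusp1 was most like Ifrd1 (0.84), Cebpb (0.84), Nfkbiz (0.81), Gm26532 and Furin, with Fos at 0.63 and Egr1 at 0.31. Dusp5 was most like Ccdc88b (0.91), Glipr1, Selplg, Nabp1 and Tnfaip3, Dusp2 most like Itsn2 (0.86), Apobec3, Sbno1, Msn and Slfn2, and Dusp6 most like Tanc2 (0.78), Wwp1, Plekhg5, Stab1 and Klf10. With a pseudocount of 1 the Dusp1 list kept 4 of its 5 genes and the others 0 to 2. With control libraries alone the Dusp6 list kept 4, the Dusp2 list 3 and the others 0 to 2, so most names depend on those choices.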

How the data were processed

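Values in the files are UMI counts, raw and whole as deposited, in a sparse matrix per genotype. The submitters' processing notes list Cell Ranger 3.1.0, Seurat 3.0 and mm10, while software version 3.0.2 stands in the header of the matrix. Neither an annotation release nor a barcode filter is stated in the labels. Each matrix holds both fractions of 1 genotype, told apart by the barcode tag stated in the labels.

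Kept barcodes had 300 genes and 500 UMIs or more, with mitochondrial UMIs up to 10%. Cells called by Scrublet (scanpy 1.11.5, expected rate 0.06) were removed, 0.24% to 2.24% of a library. The rate under 0.5% in Lin+ control means that doublets were hardly removed there. A cell joined a class where it held at least 40% of its markers (60% for progenitors) and at least 3. Where it met the minimum of another class too, it had to lead that class by 15 points. A class whose minimum it missed was not weighed, so markers of other classes can be present below that level. These thresholds were set after the data were seen. As a cross-check, cells were clustered with the Leiden method (2000 variable genes without the 7 members, 30 components, 20 neighbours, resolution 1).

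UMIs were summed per class and library and divided by the class total. Intervals are exact: Poisson for CPM, Clopper-Pearson for shares and conditional binomial for CPM ratios. They cover counting error only. A count of 0 is bounded at 3 counts. Genes with at least 20 UMIs over both libraries entered the backgrounds, in 17 comparisons of genotype and 11 of fraction, and the ratio code was tested on simulated data. Named genes are all 7 members, up to 4 genes past the fold with the largest ratios from each list in progenitor, macrophage, pericyte and blood endothelial classes, and the 5 genes most like each member. Others named for context (Etv1, Etv5, Egr1, Spred1, Dusp7 and Fos) were chosen after their values were seen. The members and lists were chosen with earlier results of these data known. Alternatives were other cell filters, class definitions, scalings and thresholds. The counts for the cascade genes in macrophage-like cells are not reported here.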

Additional observations from a re-analysis of the deposited data

Results flagged for a closer look

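The ratios below, iAdFASNKO over control within 1 fraction, lay past the fold on opposite sides in different cell classes. Each group is 1 library, and the difference between classes was not tested. Dusp1 was at 1.92 in macrophage-like cells, against 0.490 in progenitor-like, 0.397 in T cell-like, 0.545 in neutrophil-like and 0.651 in B cell-like cells, all from the same 2 Lin+ libraries. Dusp2 was at 23.1 in ILC2-like cells, where 1 cell held most of the UMIs, against 0.473 in blood endothelial-like cells of Lin- and 0.519 in neutrophil-like cells of Lin+. Dusp6 was at 3.23 in B cell-like cells of Lin+, against 0.541 in blood endothelial-like and 0.558 in progenitor-like cells of Lin-.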

How the results depend on the processing

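No paired analysis was possible because each genotype and fraction is 1 library and the labels carry no replicate numbers that pair samples. No alternative turned a call round. At a fold of 2, 2 members instead of 4 were lower in Lin- progenitor-like cells, 3 instead of 5 in the Lin+ over Lin- comparison of iAdFASNKO progenitor-like cells, and 0 instead of 1 higher in macrophage-like cells. With Leiden classes, with called doublets kept, with a looser and with a stricter cell filter and with the mean of per-cell CPM, 1 member instead of 0 was higher in Lin+ progenitor-like cells. That gene was Dusp2, at ratios of 1.33 to 2.0 over all settings. All counts with the mean of per-cell CPM rest on the fold alone, without an interval, and are a looser rule than the others. The looser filter also gave 1 member lower in macrophage-like cells instead of 0. The Dusp1 ratio in macrophage-like cells ran from 1.63 to 2.12 over 12 settings and the Lin- progenitor Spry1 ratio from 0.359 to 0.384 over 13. The Lin- progenitor Dusp1 ratio ran from 0.666 to 0.701, around the fold used. Pericyte or smooth muscle-like cells gave 2 members lower and 1 higher with Leiden classes instead of 0 each. They also gave 1 higher with the looser cell filter and with the mean of per-cell CPM, and 1 lower with the stricter gate. The call of Dusp2 in ILC2-like cells ended without its top cell. At a fold of 2, 2 instead of 4 members were lower in Lin- Cxcl14/Smoc2 cells. In the Lin+ over Lin- comparison of control CD142 cells 2 instead of 1 were lower under 4 alternatives, and in Lin+ interstitial cells 1 instead of 0 was higher in iAdFASNKO under 3. Without barcodes shared between libraries, 50 of 56 counts of members were within 1.5 times the main count. The stricter filter left too few macrophage-like cells for a value, and Leiden clustering gave no neutrophil, ILC2 or type 2 dendritic cluster. The shared-barcode setting and a stricter gate were chosen after seeing the data. The cause of these shifts was not tested. Depth limits Dusp2, Dusp5 and Spry4 most: outside their main classes they had few UMIs and wide intervals.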
